A study of Mus musculus with 72 samples.

Results

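The sperm flagellum and axoneme genes described here were 44 listed symbols, of 37108 gene symbols over the 7 count tables of the series. They comprised 10 axonemal dynein heavy chains (Dnah1, Dnah2, Dnah3, Dnah5, Dnah6, Dnah8, Dnah10, Dnah11, Dnah12 and Dnah17) and 2 smaller dynein subunits (Dnaic1 and Dnali1). The list also held 4 genes of intraflagellar transport (Dync2h1, Ift88, Ift140 and Ift172), 4 of the central pair apparatus (Hydin, Spag16, Spag17 and Spef2) and 4 of the radial spokes and nexin links (Rsph1, Rsph4a, Rsph9 and Gas8). There were 7 fibrous sheath genes (Fsip1, Fsip2, Akap3, Akap4, Ropn1, Ropn1l and Cabyr), 4 outer dense fibre genes (Odf1, Odf2, Odf3 and Odf4) and 5 tektins (Tekt1 to Tekt5). The manchette protein Meig1, the basal body protein Alms1 and the transcription factors Foxj1 and Rfx2 completed the list. The list was drawn up because Fsip2, Dync2h1, Hydin and Dnah6, all long transcripts, were among the lower genes in IVF testes at 12 weeks. The 12-week contrast therefore chose the genes, and its values are given as a description without a test. Tests were made in testes at E18.5 and 39 weeks, in F2 testes, and in F2 ovaries and livers, which the choice did not use.

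Messenger RNA from mouse tissues was sequenced in 72 libraries, 32 from naturally conceived animals (naturals) or their offspring and 40 from the IVF group. F1 naturals came from CF-1 females mated in natural estrus with SJL/B6 males. IVF embryos came from superovulated CF-1 eggs and SJL/B6 sperm, were cultured to blastocysts in KSOM+AA and were transferred to pseudopregnant CF-1 recipients, so the IVF group differed from naturals also in superovulation, culture and transfer. Adult F1 animals of both groups were delivered by cesarean section and fostered. Delivery was at E18.5 in naturals and somewhat later in the IVF group, so its timing differed too. F2 animals, examined at 12 weeks, came from F1 males of either group mated with wild-type CF-1 females. Testes were compared at E18.5 (4 naturals, 6 IVF), 12 weeks (5 and 5), 39 weeks (4 and 6) and in F2 (5 and 7), beside F2 ovaries (4 and 5), male livers (5 and 5) and female livers (5 and 6). Unsorted pieces of tissue were sequenced, so fewer cells of a type and less RNA per cell cannot be told apart in these values.

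The axoneme is the microtubule core of the flagellum. Dynein heavy chains are its motors, and the central pair and radial spokes regulate their beat. Intraflagellar transport carries building blocks along the growing tail, with Dync2h1 as the motor for return to the cell body. Sperm add outer dense fibres and a fibrous sheath around the axoneme, and most of these proteins are made in spermatids. Motile cilia of the oviduct share much of this axoneme but have no fibrous sheath. Their outer arms carry heavy chains that include Dnah5 and Dnah11, where those of sperm tails carry Dnah8 and Dnah17. Foxj1 and Rfx2 are transcription factors that turn on ciliary and flagellar genes. Many axonemal genes are very long: among the 44, the annotated transcript (the longest coding transcript of the gene in GENCODE M21) ran from 0.706 kb for Meig1 to 21.1 kb for Fsip2.

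RFX factors are known to bind ciliary promoters. Shown here are the promoters of the 4 genes that prompted the list, and of Rsph9, which passed as higher in F2 testes. Each runs 5′ to 3′ on the gene's strand, from 250 bases before to 50 bases after the RefSeq start in GRCm38.p6. Capitals mark the short RFX motif GTTNCC on either strand and, in Dnah6, the cAMP response element TGACGTCA.
Fsip2: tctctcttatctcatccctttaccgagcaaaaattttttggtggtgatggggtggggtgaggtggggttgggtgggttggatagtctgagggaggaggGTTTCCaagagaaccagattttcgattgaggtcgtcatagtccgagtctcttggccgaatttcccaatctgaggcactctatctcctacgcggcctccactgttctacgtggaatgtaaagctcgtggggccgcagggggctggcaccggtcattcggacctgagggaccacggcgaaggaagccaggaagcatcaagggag
Dync2h1: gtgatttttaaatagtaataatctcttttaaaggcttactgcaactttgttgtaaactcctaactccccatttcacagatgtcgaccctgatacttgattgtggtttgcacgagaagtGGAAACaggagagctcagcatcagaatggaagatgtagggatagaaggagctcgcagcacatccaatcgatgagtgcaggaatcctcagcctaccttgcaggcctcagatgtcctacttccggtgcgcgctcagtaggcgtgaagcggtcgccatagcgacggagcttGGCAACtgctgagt
Hydin: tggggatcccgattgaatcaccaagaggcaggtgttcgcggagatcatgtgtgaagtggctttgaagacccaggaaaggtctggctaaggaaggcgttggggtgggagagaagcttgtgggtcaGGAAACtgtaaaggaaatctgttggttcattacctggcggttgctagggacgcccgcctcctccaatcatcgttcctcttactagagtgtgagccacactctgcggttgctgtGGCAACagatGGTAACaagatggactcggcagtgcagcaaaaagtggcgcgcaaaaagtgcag
Dnah6: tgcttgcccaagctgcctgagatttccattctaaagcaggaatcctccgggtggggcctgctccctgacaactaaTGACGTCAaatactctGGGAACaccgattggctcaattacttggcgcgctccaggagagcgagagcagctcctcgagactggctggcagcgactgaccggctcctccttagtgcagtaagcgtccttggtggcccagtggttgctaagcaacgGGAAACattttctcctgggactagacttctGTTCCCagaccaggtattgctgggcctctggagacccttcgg
Rsph9: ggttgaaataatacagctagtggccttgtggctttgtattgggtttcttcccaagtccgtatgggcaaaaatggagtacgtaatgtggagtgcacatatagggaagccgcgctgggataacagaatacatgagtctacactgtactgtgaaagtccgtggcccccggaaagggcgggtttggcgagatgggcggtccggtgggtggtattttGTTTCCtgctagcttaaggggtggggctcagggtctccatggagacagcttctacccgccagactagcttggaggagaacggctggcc
They lie at chr2:82943384-82943683 (Fsip2, plus strand), chr9:7177009-7177308 (Dync2h1, minus), chr8:110266727-110267026 (Hydin, plus), chr6:73221582-73221881 (Dnah6, minus) and chr17:46144151-46144450 (Rsph9, minus). In all, 37 of the 44 genes matched 46 promoters, and GTTNCC stood in 28 of them (60.9%) against 45.3% of all 32851 mouse promoters of that length. The strict palindrome GTTNCCNNGGNAAC, which holds GTTNCC on both strands at a fixed spacing, stood in 0 against 0.451% of all. Forms with other letters or spacing were not counted, so the 0 does not show that these promoters lack RFX sites. The forkhead motif GTAAACA stood in 2 (4.35%) against 3.65%, and TGACGTCA in 1 (2.17%) against 1.79%. The RefSeq start of Dync2h1 lies inside the gene's GENCODE span. Each match is a description of letters and not a measured binding site.

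Total counts ran from 543745 to 90441392 per library. Testis totals overlapped between groups at 12 weeks and in F2, but every IVF library was deeper at E18.5, where naturals had 2904727 to 4869139 counts and IVF libraries 8500054 to 15745480, and at 39 weeks, with 11438213 to 12705316 and 14033176 to 23318391. Adult testes were rich in spermatid transcripts, with a summed level of 8 elongating spermatid markers of 17205 to 21746 CPM (counts scaled to the same library total) at 12 weeks, against 6.66 to 12.1 CPM at E18.5, before spermatids form. Natural 1 at E18.5 carried hepatocyte transcripts, the natural 2 ovary carried oviduct transcripts and 3 natural male livers carried spermatid transcripts, with values given beside the results they touch. Some library pairs were much closer than any other pair of their table: naturals 1 and 2 at 39 weeks, and in F2 testes naturals 1 and 2 and IVF 3 and 4. Their mean chi-square per gene of 3.04, 3.72 and 2.84 exceeded sampling noise, so they were not counted as the same library. That excess does not show separate animals, which the labels do not give, and counting each pair as 1 sample, a setting chosen after seeing the data, changed no call. The study's methods describe the testes of the first generation as taken from different litters, but the labels tie no library to a litter or animal. The p-values therefore measure the spread between these samples, which may in part be technical.

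In adult testes the most abundant of the 44 transcripts per length were Meig1, which is needed to build the sperm tail, and the structural tail genes. In naturals at 12 weeks, Meig1 stood at 963 CPM per kb, Odf1 (the main outer dense fibre protein) at 908, Odf2 (a further outer dense fibre protein) at 897 and Akap4 (the main fibrous sheath protein) at 855. The 4 long genes were far lower per length: Fsip2, a fibrous sheath protein, was at 29.9 CPM per kb, Hydin, which holds up the central pair, at 16.5, Dync2h1 at 13.7 and the inner arm heavy chain Dnah6 at 12.6. Foxj1 was at 70.5 and Rfx2 at 115 CPM per kb. Rsph4a, a radial spoke head protein of motile cilia, and the heavy chains Dnah5 and Dnah11 were the lowest, at 0.107, 0.248 and 0.281 CPM per kb, and 41 of the 44 genes were above 1 CPM per kb.

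Before birth the order was different. In E18.5 naturals Odf2 led at 21.4 CPM per kb, followed by the transport genes Ift172 at 17.5 and Ift140 at 11.3, and 18 of the 44 genes were above 1 CPM per kb. Tekt3 and Tekt4, tektins of the tail microtubules, had 0 counts in every E18.5 natural. The E18.5 and 12-week tables were normalized apart and not tested against each other. Set side by side, mean CPM in naturals was 3.31 and 2583 for Akap4, 14.1 and 261 for Hydin, 48.4 and 195 for Dync2h1 and 15.8 and 59.9 for Ift88, so the transport genes Dync2h1 and Ift88 differed less between the ages than Hydin and Akap4 did.

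**Figure D1:**
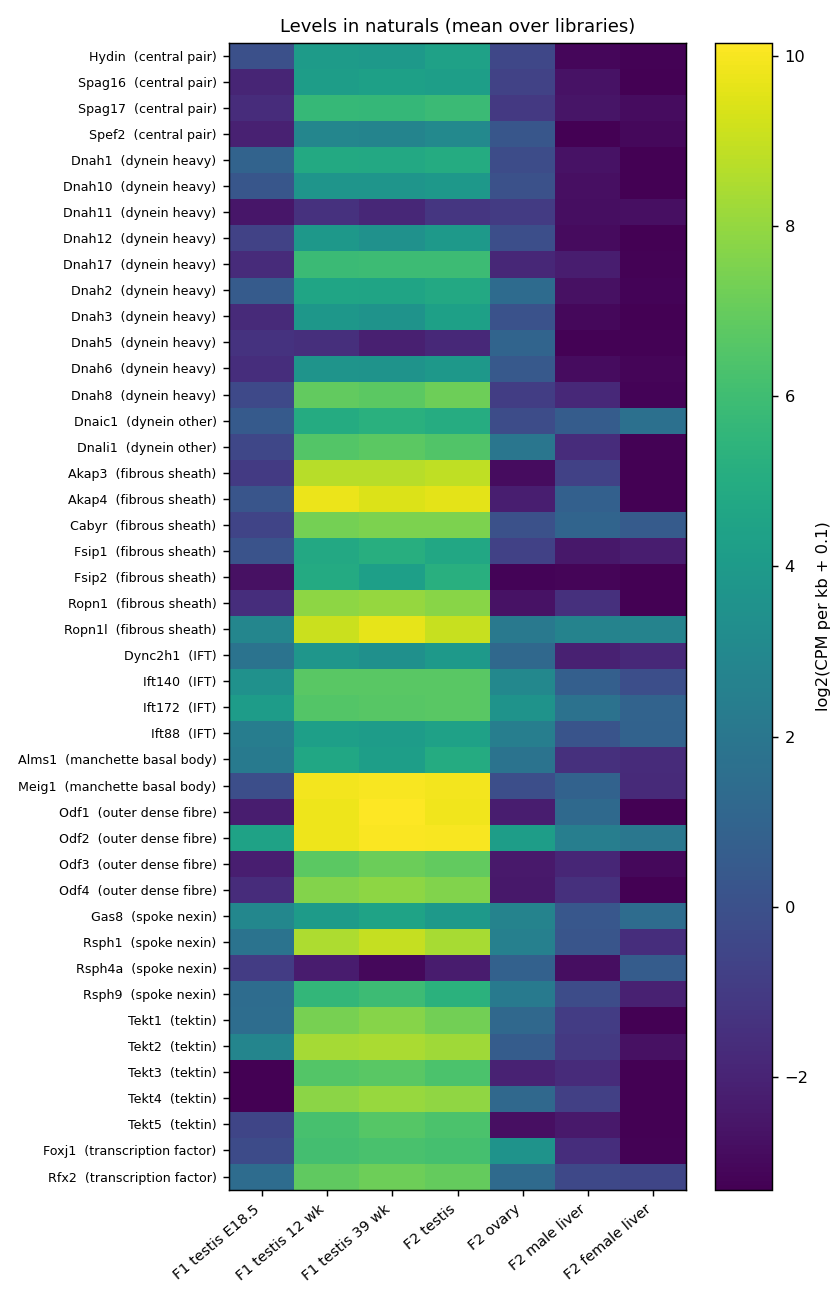
Heat map of the level of each of the 44 genes in naturals, as log2(CPM per kb + 0.1), mean over libraries, with genes as rows grouped by role and the 7 experiments as columns. The 3 adult testis columns are bright for nearly all genes, and Meig1, Odf1, Odf2 and Akap4 are the brightest, with 963, 908, 897 and 855 CPM per kb at 12 weeks; E18.5 testis, ovary and livers are dark for most.

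At 12 weeks all 16 members longer than 7 kb were lower in IVF testes, while the 27 shorter members with enough counts were close to naturals. Fsip2 was at 592, 625.4, 623, 701 and 612 CPM in naturals 1 to 5 and at 469, 372, 409, 352 and 402 CPM in IVF 1 to 5. The groups did not overlap, and the log2 fold change was -0.65 with a standard error (SE) of 0.07. Dync2h1 was at 191, 184, 198, 219 and 183 CPM in naturals and at 145, 121, 134, 136 and 128 CPM in IVF, a log2 fold change of -0.56 (SE 0.07). It is the motor that returns transport trains from the tip of the growing axoneme. Hydin was at 241, 256, 278, 268 and 261 CPM against 217, 178, 189, 198 and 189 CPM (log2 fold change -0.42, SE 0.06). Dnah6 was at 148, 153, 165, 164 and 166 CPM against 129.9, 105, 122, 118 and 111 CPM (log2 fold change -0.44, SE 0.07). In each of the 4 genes every IVF library lay below every natural, in the contrast for which they were picked.

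The other long members went the same way at 12 weeks with smaller or more variable differences. All 10 dynein heavy chains were lower, between -0.51 for Dnah8, an outer arm chain of the sperm tail, and -0.22. Dnah8 varied widely, from 1408 to 2737 CPM in naturals and from 1145 to 1696 CPM in IVF, and its groups overlapped (SE 0.21). Dnah12 was at -0.47, Dnah2 at -0.44 and Dnah10 at -0.36, all 3 inner arm chains. Alms1, a basal body protein, was at -0.38 and Spag17, of the central pair, at -0.31. Of 43 members tested, 11 passed as lower (adjusted p under 0.05, by edgeR's quasi-likelihood test, with p adjusted by Benjamini-Hochberg over every gene tested) beside 0.671% of all genes, and 0 as higher beside 0.0746%; 19 were under an unadjusted p of 0.05, and DESeq2 called 11 as lower and 0 as higher. In 11 members every IVF library lay below every natural, beside 2.15% of all genes. Since this contrast chose the list, nothing is read from these counts.

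The short members stood near zero at 12 weeks, between -0.14 and 0.25 with a median log2 fold change of 0.05 and 7 of 27 below zero. Meig1 was at 614 to 732 CPM in naturals and 708 to 815 CPM in IVF (log2 fold change 0.18, SE 0.06), and Odf1 at 965 to 1029 against 1003 to 1232 CPM (0.14, SE 0.05). Odf2 was at 3550.5 ± 81.0 (SD, n = 5) and 3631 ± 124 CPM (0.03, SE 0.04). Both transcription factors overlapped between groups. Foxj1 was at 189, 206, 178, 208 and 143 CPM in naturals and 143, 178, 222, 185 and 187 CPM in IVF (-0.01, SE 0.12). Rfx2 was at 358, 395, 407, 390.3 and 380.4 CPM in naturals and 391, 359, 387, 394 and 398 CPM in IVF (-0.00, SE 0.05). The summed level of 7 spermatogonial markers was 94.2 to 106 CPM in naturals and 106 to 121 CPM in IVF, every IVF library being higher, with 0 of the 7 markers passing. All 7 Leydig cell markers were above zero (median log2 fold change 0.36), and Insl3, a Leydig cell hormone, passed as higher; their sums of 754 to 1142 and 764 to 1463 CPM overlapped. All 8 elongating spermatid markers were above zero (median 0.11) with 0 passing, and their sums, up to 19522 CPM in naturals and 17914 to 21746 in IVF, overlapped. The part of these lists in the members' values was not tested.

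**Figure D2:**
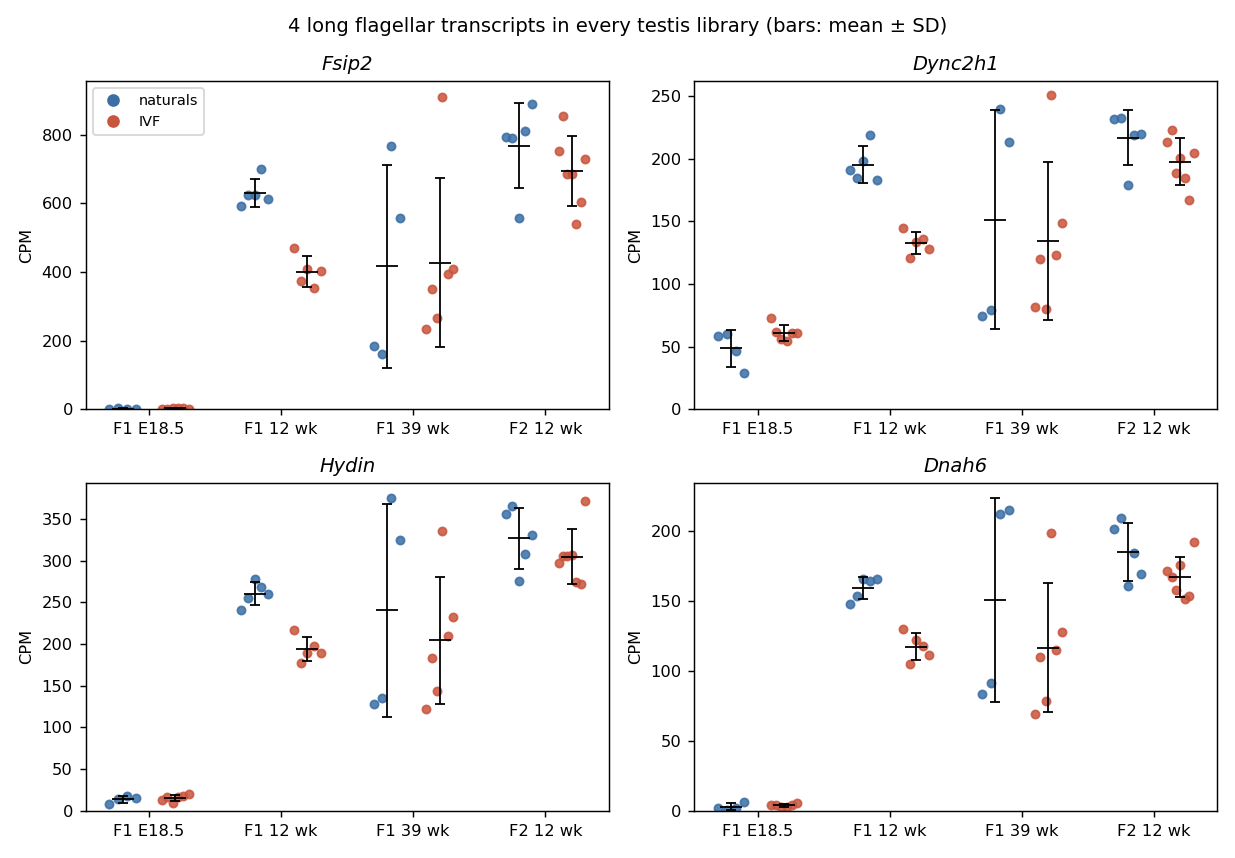
CPM of Fsip2, Dync2h1, Hydin and Dnah6 in every testis library by experiment, naturals in blue and IVF in red, with mean and SD as bars. At 12 weeks the groups do not overlap in any of the 4 genes (Fsip2 592 to 701 against 352 to 469 CPM); at E18.5, 39 weeks and in F2 they overlap.

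Transcript length ordered the 12-week fold changes of the members almost fully. Across the 43 genes the log2 fold change went down along log2 length with Pearson's r = -0.922 and Spearman's rho = -0.894, as a description across genes, which share libraries and are not independent. The members include Fsip2, Dync2h1, Hydin and Dnah6, long genes picked as lower in this contrast. Their order is thus in part set by that choice, and its strength is not weighed against that of other genes. The other genes of the genome were ordered the same way: across 17178 of them r was -0.235 and rho -0.325. Their median log2 fold change was 0.11 under 1 kb, 0.09 from 1 to 2 kb, 0.02 from 2 to 4 kb, -0.07 from 4 to 8 kb, -0.16 from 8 to 12 kb and -0.30 above 12 kb. Of the 173 other genes above 12 kb, 87.9% were below zero and 32 passed as lower, against a median of -0.42 in the 13 members of that length. A trend of log2 CPM with length was then fitted in each library, with the members left out, and removed. After this Fsip2 stood at -0.31 (SE 0.06) and was the only member under the threshold. Dync2h1 stood at -0.28, Dnah6 at -0.19 and Hydin at -0.13. Removing a trend with GC content instead left 11 lower and Meig1 as higher. As this contrast chose the list, these calls are a description only.

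**Figure D3:**
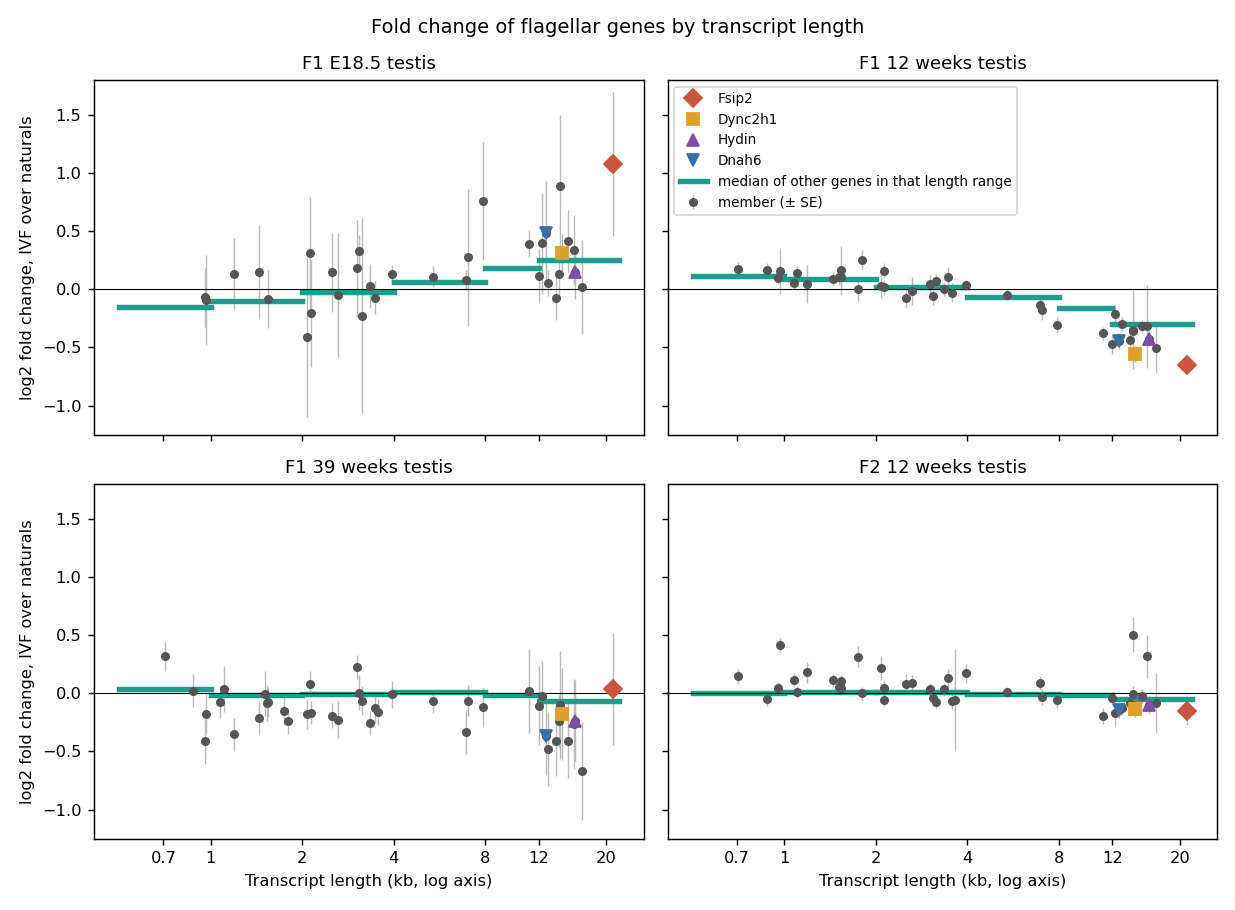
Log2 fold change of each member (IVF over naturals, ± SE) by transcript length in kb on a log axis, in the 4 testis experiments; green lines are the median of all other genes in that length range. Long members sit above zero at E18.5 (Fsip2 1.07), below at 12 weeks (Fsip2 -0.65) and mostly a little below at 39 weeks and in F2 (medians -0.21 and -0.08).

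In fetal testes at E18.5 no member passed the test, and most long members stood above zero. Of the 44 genes, 34 had enough counts to be tested, and 0 passed beside 1.17% of all genes; 2 were under an unadjusted p of 0.05 and DESeq2 called 1, Alms1. Fsip2 had 0, 3.28, 0.676 and 0.666 CPM in naturals, and IVF libraries ran from 1.63 to 4.23 CPM with a median of 2.25. The log2 fold change was 1.07 (SE 0.62, edgeR adjusted p = 0.385), on at most 16 counts in a natural library. Dync2h1 was at 58.5, 60.1, 46.2 and 29.0 CPM in naturals and at 54.8 to 72.5 CPM in IVF with a median of 60.8 (log2 fold change 0.32, SE 0.16, edgeR adjusted p = 0.310). Natural 4 lay well below the other libraries. Hydin was at 8.56, 14.0, 18.03 and 16.0 CPM against 9.49 to 20.1, median 16.9 CPM (0.15, SE 0.23, edgeR adjusted p = 0.787). Dnah6 was at 2.38, 0.821, 2.03 and 6.66 CPM against 2.50 to 5.73, median 4.08 CPM (0.49, SE 0.45, edgeR adjusted p = 0.610). All 4 overlapped between groups.

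The smallest p values at E18.5 belonged to genes of the basal body and of transport. Alms1 was at 55.2, 65.0, 42.4 and 41.0 CPM in naturals and at 63.6 to 74.2 CPM in IVF with a median of 66.4, and natural 2 alone reached the IVF range (log2 fold change 0.39, SE 0.12, edgeR adjusted p = 0.0904). Without natural 2 it passed the edgeR test, as the only member. Ift88, a core protein of the transport train, was at 12.6, 15.4, 15.8 and 19.3 CPM against 16.9 to 21.7, median 19.5 CPM (0.33, SE 0.14, edgeR adjusted p = 0.232). The lowest p on the other side belonged to Fsip1, a fibrous sheath protein at 0 to 4.99 CPM (-0.41, SE 0.68, edgeR adjusted p = 0.801), and Gas8, of the nexin link (-0.07, SE 0.14, edgeR adjusted p = 0.839). Foxj1 was at 0.451 to 2.85 CPM in naturals and 0.703 to 4.17 CPM in IVF (-0.05), and Rfx2 at 6.66 to 10.7 against 8.20 to 10.4 CPM (0.03). Hepatocyte markers summed to 487 CPM in natural 1, against a median of 12.8 over naturals and at most 18.3 in IVF. Without natural 1 the log2 fold changes of Hydin, Foxj1 and Rfx2 stood at -0.03, 0.18 and -0.09, and the part of the hepatocyte transcripts was not tested.

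By length, 15 of the 16 members over 7 kb were above zero at E18.5 (median 0.32, range -0.07 to 1.07), and 10 of the 18 shorter ones tested (median 0.05), against a median of -0.00 over all genes. Across the 34 members the log2 fold change went up along log2 length with r = 0.540 and rho = 0.493. The 15125 other genes gave r = 0.214 and rho = 0.301, and of the 175 other genes above 12 kb 16.0% were below zero, with a median of 0.26 and 10 passing as higher. The length order thus had the opposite sign to that at 12 weeks. Depth and 2 marker lists moved with the groups here, and their part was not tested. The IVF libraries were all deeper, the summed level of round spermatid markers was 1.90 to 4.33 CPM in naturals and 4.42 to 6.89 in IVF, and a marker list that Sertoli cells share with granulosa cells summed to 2295 to 3383 CPM in naturals and 1415 to 2034 in IVF.

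At 39 weeks no member passed either, and single libraries of both groups differed several-fold in the long transcripts. Of 43 members tested, 0 passed beside 0.00996% of all genes; 5 were under an unadjusted p of 0.05, and DESeq2 called 0. Fsip2 was at 184, 161, 768 and 556 CPM in naturals 1 to 4 and at 235 to 911 CPM in IVF with a median of 372 (log2 fold change 0.03, SE 0.48, edgeR adjusted p = 0.988). Naturals 3 and 4 and IVF 4 were the high libraries, and the highest was 5.67 times the lowest, against 1.99 times at 12 weeks. Dync2h1 was at 74.0, 78.9, 239.6 and 213 CPM against 80.2 to 251, median 121 CPM (-0.18, SE 0.40, edgeR adjusted p = 0.925). Hydin was at 128, 135, 375 and 324 CPM against 122 to 335, median 197 CPM (-0.24, SE 0.35, edgeR adjusted p = 0.869). Dnah6 was at 83.8, 91.2, 212 and 215 CPM against 69.0 to 199, median 113 CPM (-0.37, SE 0.33, edgeR adjusted p = 0.754). The same 3 libraries were the highest in all 4 genes. Over the members longer than 7 kb the highest library was a median 3.10 times the lowest, against 1.59 times in the shorter ones.

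More members lay below zero than above at 39 weeks, in small differences. In 35 of 43 the log2 fold change was negative, against 49.3% of all genes, and the median was -0.15 against 0.01 over all genes. Those over 7 kb had a median of -0.21 (14 of 16 negative) and the shorter ones -0.12 (21 of 27 negative). Rfx2 was at 482, 479.5, 495 and 467 CPM in naturals and at 329.9 to 449 CPM in IVF with a median of 411, so every IVF library lay below every natural, as in 1.56% of all genes (log2 fold change -0.26, SE 0.10, edgeR adjusted p = 0.401). It was the only member with that pattern. Rsph1, a radial spoke head protein, was at 459 to 663 CPM against 345 to 538 CPM (-0.35, SE 0.14, edgeR adjusted p = 0.423). Foxj1 was at 203, 214, 142 and 272 CPM against 139 to 199, median 184 CPM (-0.23, SE 0.16, edgeR adjusted p = 0.646). On the other side, Meig1 was at 613 to 848 CPM against 710.3 to 1054 CPM (0.32, SE 0.13, edgeR adjusted p = 0.408) and Akap4 at 1890.5 to 2526 against 2295 to 2634 CPM (0.22, SE 0.10, edgeR adjusted p = 0.477). None of these passed. In this table the fold changes of the other genes followed GC content (rho = -0.437) rather than length (rho = -0.00288), and every IVF library was deeper; their part was not tested.

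In testes of the F2 generation 1 member rose, Rsph9, a subunit of the radial spoke head. It was at 39.1, 36.6, 39.4, 36.2 and 36.5 CPM in naturals 1 to 5, and IVF 1 to 7 were at 54.0, 52.6, 50.5, 47.8, 51.1, 49.7 and 44.9 CPM. Every IVF library lay above every natural, as in 1.04% of all genes, and the means were 37.5 ± 1.54 and 50.1 ± 3.03 CPM (SD, n = 5 and 7). The log2 fold change was 0.42 (SE 0.06, edgeR adjusted p = 0.000388), which is under 1.5-fold. No other gene's exon overlaps Rsph9 (chr17:46122035-46144216, 0.966 kb). In F1 testes the log2 fold change of Rsph9 was 0.16 at 12 weeks and -0.17 at 39 weeks. Its 12-week F1 libraries ran from 30.1 to 63.6 CPM with a natural mean of 47.4, in a table normalized apart. Of 44 members tested in F2, 1 passed as higher beside 0.942% of all genes and 0 as lower beside 0.667%. With 1 call, this share is not read as different from that of all genes. In all 7 members were under an unadjusted p of 0.05, and DESeq2 called 2 as higher, Rsph9 and Tekt3, and 0 as lower.

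Tekt3 was at 144, 136, 129, 144 and 154 CPM in F2 naturals and at 153 to 239 CPM in IVF with a median of 171, with natural 5 just inside the IVF range (log2 fold change 0.31, SE 0.09, edgeR adjusted p = 0.103). It passed edgeR once IVF 7, the highest library, was left out. The smallest p among the lower members belonged to Alms1, at 319 to 356 CPM against 256 to 351 CPM (-0.19, SE 0.07, edgeR adjusted p = 0.187), and Dnah1, an inner arm heavy chain, at 363 to 441 against 344 to 391 CPM (-0.13, SE 0.05, edgeR adjusted p = 0.277).

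The 4 long genes of the F1 contrast did not pass in F2 testes. Fsip2 was at 793, 789, 558, 809.8 and 891 CPM in naturals and at 539.6 to 854 CPM in IVF with a median of 686 (log2 fold change -0.15, SE 0.12, edgeR adjusted p = 0.665). Dync2h1 was at 232, 233, 179, 219 and 219.8 CPM against 167 to 223, median 201 CPM (-0.13, SE 0.07, edgeR adjusted p = 0.427). Natural 3 was the low natural library in both. Hydin was at 356, 365, 275, 308 and 331 CPM against 272 to 372, median 306 CPM (-0.10, SE 0.08, edgeR adjusted p = 0.616). Dnah6 was at 201, 209, 160.4, 184 and 169 CPM against 152 to 192, median 167 CPM (-0.15, SE 0.07, edgeR adjusted p = 0.359). Every IVF median lay below the natural mean, with overlapping groups. Foxj1 was at 196, 199.7, 158, 194 and 195 CPM against 178 to 225, median 199 CPM (0.09, SE 0.07, edgeR adjusted p = 0.609), and Rfx2 at 404 to 445 against 385 to 499 CPM (0.04, SE 0.06, edgeR adjusted p = 0.841). Of the members over 7 kb, 14 of 16 were below zero with a median of -0.08, and of the shorter ones 6 of 28 with a median of 0.05. IVF 7 was the highest library in many of the shorter ones, such as Rsph1, Gas8, Odf2 and Meig1, while others peaked elsewhere. Its part in that median was not tested. The 178 other genes above 12 kb had a median of -0.05 with 65.7% below zero. The long members above zero were Dnah5 and Dnah11, both low in testis, the latter at 4.07 to 5.36 CPM in naturals and 5.31 to 10.5 CPM in IVF.

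Since the 4 genes were long, the dependence of counts on length was measured in each library with the members left out, as the slope of log2 CPM, relative to the gene's mean over the libraries, on log2 transcript length. At E18.5 the slope was -0.0374 ± 0.0384 (SD, n = 4) log2 units per doubling of length in naturals and 0.0250 ± 0.00547 (n = 6) in IVF. All IVF libraries lay above all naturals, and the difference was 0.0624. Its 2-sided exact permutation p was 0.00952, the smallest this test can give for 4 and 6 libraries. Adjusted over the 3 experiments tested, this p was 0.0286. Every IVF library was also deeper at E18.5, so depth and group cannot be told apart in this difference. Natural 1 carried hepatocyte transcripts there, and their part was not tested. At 12 weeks the slope was the other way round, 0.0289 ± 0.0175 in naturals and -0.0289 ± 0.0156 in IVF (SD, n = 5 and 5), with all IVF libraries below all naturals. That difference of -0.0577 was not tested, as the list was chosen there. At 39 weeks the libraries of both groups ranged widely, from -0.132 to 0.156 in naturals and from -0.0867 to 0.142 in IVF, and the difference was -0.00319 (exact permutation p = 0.962, also after adjustment). Naturals 3 and 4 and IVF 4 had the 3 highest slopes, 0.156, 0.108 and 0.142, and were the libraries highest in Fsip2. In F2 testes the difference was 0.00202 (exact permutation p = 0.843, 0.962 adjusted).

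**Figure D4:**
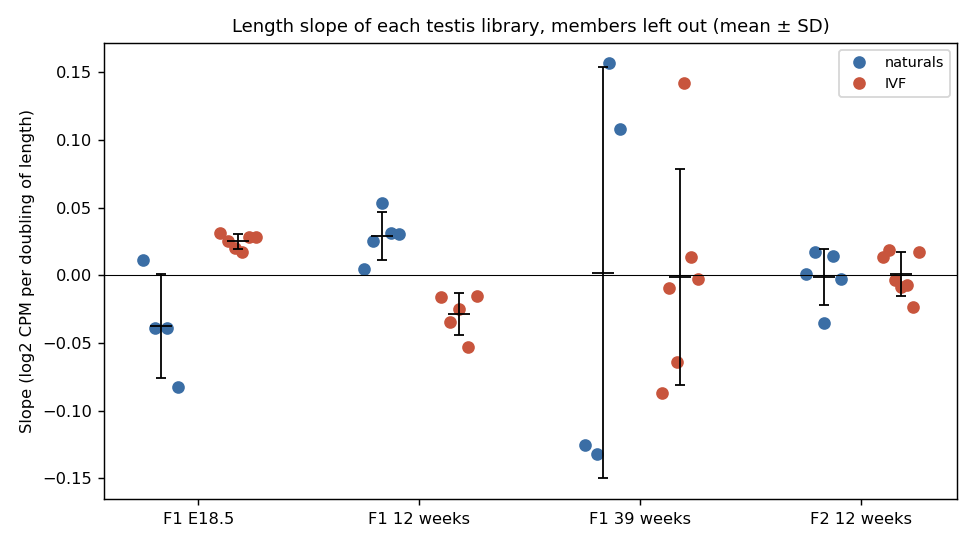
Slope of log2 CPM on log2 transcript length in each testis library, over genes that are not members, with mean and SD per group. IVF libraries lie above naturals at E18.5 (means 0.0250 and -0.0374) and below them at 12 weeks (-0.0289 and 0.0289), and at 39 weeks naturals spread from -0.132 to 0.156.

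Other genes of the same pathways, 94 symbols for further dynein arm and assembly factors, transport, central pair, spoke, sheath, ion channel and regulator genes, were listed beside the members. At 12 weeks 2 of 85 tested passed as lower beside 0.671% of all genes and 0 as higher beside 0.0746%, with 22 under an unadjusted p of 0.05 and 8 called lower by DESeq2. They were Dnah7b, an inner arm heavy chain (log2 fold change -0.34, SE 0.07), and Cfap54, of the central pair (-0.35, SE 0.08). Long genes in general were lower at 12 weeks, with a median of -0.30 above 12 kb. The part of length in these 2 calls was not tested. Dnah7b was at 129, 128, 154, 132 and 124 CPM in naturals and 108, 110.5, 94.4, 109 and 103 CPM in IVF, without overlap. At E18.5 0 of 66 passed edgeR beside 1.17% of all genes (9 under an unadjusted p of 0.05, 1 called by DESeq2) and at 39 weeks 0 of 85 beside 0.00996% (13 unadjusted, 0 by DESeq2). In F2 testes 1 of 86 passed as higher, beside 0.942% of all genes, and 0 as lower beside 0.667%, so the share was near that of all genes. It was Ift22, a small GTPase of the transport train, at 80.7, 88.7, 84.9, 85.3 and 80.2 CPM in naturals and at 93.1 to 111, median 104 CPM in IVF, with every IVF library above every natural (0.30, SE 0.06, edgeR adjusted p = 0.00537). Rsph9 and Ift22 were the genes of both lists that passed edgeR in F2 testes.

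In the ovary no member passed, and 1 natural library stood apart in the ciliary members. Natural 2 had a summed level of 1081 CPM over the 44 genes, against 353 to 384 in the other naturals and 334 to 385 in IVF, and was the highest library in 22 of the 29 members tested. It also carried oviduct transcripts: the oviduct glycoprotein Ovgp1 was at 1069.8 CPM there and at 1.57 to 6.30 in the other naturals, and 9 ciliated cell markers summed to 204 CPM. The share of oviduct tissue in it was not tested. Foxj1, the regulator of motile cilia, was at 0.324, 124, 2.59 and 0.433 CPM in naturals and at 7.22, 0.501, 0.256, 9.05 and 1.57 CPM in IVF (log2 fold change -3.08, SE 1.75, edgeR adjusted p = 0.551). Without natural 2 it stood at 1.81. IVF 1, the library at 7.22 CPM, also carried oviduct transcripts, with Ovgp1 at 70.4 CPM against 1.86 to 6.79 in the other IVF ovaries and 4 oviduct secretory markers summing to 111 CPM against 8.06 to 20.5; their part in the value of 1.81 was not tested. The fold changes of Dnah3 (-3.79), Dnah12 (-3.22) and Hydin (-3.03) rested on the same library; Hydin was at 38.6 CPM in natural 2 and at 0.256 to 2.62 CPM in the other ovaries.

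With all ovaries, 24 of the 29 members were below zero with a median of -0.49 against -0.01 over all genes, and without natural 2 10 of 29 with a median of 0.11. Of the 29, 0 passed edgeR beside 0% of all genes, 5 were under an unadjusted p of 0.05 (7 without natural 2, where 0 passed as well) and DESeq2 called 0. Every IVF ovary lay below every natural in 2 members, Rfx2 and Dnah10, beside 1.56% of all genes. Rfx2 was at 6.82, 13.0, 6.71 and 6.11 CPM in naturals and 5.85, 4.26, 4.80, 5.46 and 3.84 CPM in IVF (-0.75, SE 0.25, edgeR adjusted p = 0.414). Dnah10, an inner arm chain, was at 6.26, 30.5, 6.94 and 8.01 CPM against 5.79, 3.88, 5.89, 4.39 and 5.32 CPM (-1.35, SE 0.46, edgeR adjusted p = 0.420). Dync2h1 was at 32.3, 37.8, 28.9 and 30.03 CPM against 23.3, 29.1, 27.0, 21.5 and 27.0 CPM (-0.33, SE 0.11, edgeR adjusted p = 0.418), and Dnah1 at 2.09 to 32.1 against 0.872 to 3.53 CPM (-2.20, SE 0.90, edgeR adjusted p = 0.446). Odf2 and Ift172, the most abundant per length beside Foxj1 (17.8, 12.0 and 12.1 CPM per kb in naturals), had log2 fold changes of 0.06 and -0.12. The level of Foxj1 rested on natural 2. Steroidogenic markers summed to 11847 to 22368 CPM in naturals and 22469 to 31228 in IVF ovaries, and their part in these values was not tested.

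**Figure D5:**
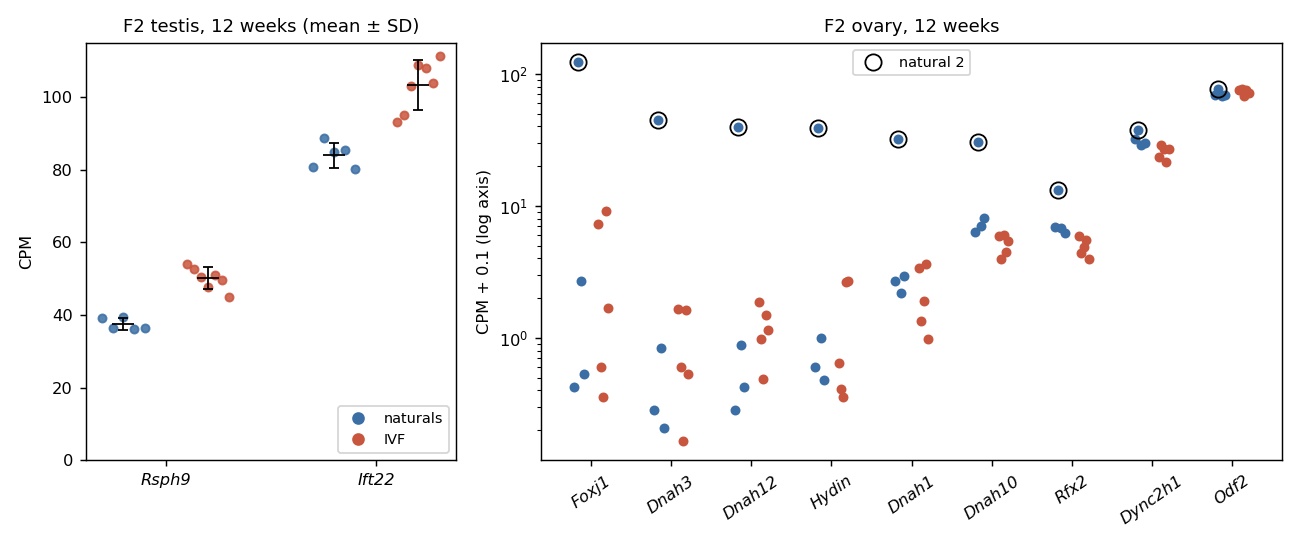
Left, CPM of Rsph9 and Ift22 in each F2 testis with mean and SD. Right, CPM + 0.1 on a log axis of 9 members in each F2 ovary, natural 2 circled. Every IVF testis lies above every natural in both genes (Rsph9 44.9 to 54.0 against 36.2 to 39.4 CPM), and natural 2 is the highest ovary in all but Odf2 (Foxj1 124 against 0.256 to 9.05 CPM elsewhere).

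In the livers few members were measurable and many other genes differed between the groups. In male livers 13 members were tested, and 1 passed as higher beside 16.1% of all genes and 0 as lower beside 18.4%. In all 2 members, Ift88 and Rfx2, were under an unadjusted p of 0.05, and DESeq2 called 1 as higher and 0 as lower. The gene was Ift88, at 2.14, 3.69, 3.23, 3.83 and 2.94 CPM in naturals and at 6.85, 7.46, 0, 7.41 and 5.82 CPM in IVF (log2 fold change 1.00, SE 0.33, edgeR adjusted p = 0.0254). IVF 3 held 543745 counts in all and none of Ift88. The call was lost without natural 1, natural 3, natural 5, IVF 1 or IVF 4, with edgeR adjusted p from 0.0548 to 0.0678 and log2 fold changes from 0.89 to 1.00. It was also lost with a GC trend removed (0.66, edgeR adjusted p = 0.156). Rfx2 was at 2.51, 0.985, 1.96, 1.83 and 3.53 CPM against 1.26, 0, 0, 0.802 and 0.759 CPM (-1.33, SE 0.50, edgeR adjusted p = 0.0501).

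Spermatid transcripts were present in 3 male natural livers. Akap4 was at 8.30 CPM in natural 1, 1.64 in natural 4 and 14.6 in natural 5, and at 0 in naturals 2 and 3, and Odf1 was at 4.53, 0.802 and 7.40 CPM in the same 3 libraries. Elongating spermatid markers summed to 99.7, 20.8 and 148 CPM there, against 1.23 and 1.44 in the other naturals and at most 8.60 in IVF. Levels of spermatid genes in male liver, among them Dnah8 at 5.78, 0.492, 0.231, 1.95 and 7.66 CPM in naturals (-1.93, SE 0.94, edgeR adjusted p = 0.131), moved with these markers. Dnah8 passed as lower without natural 3, at -2.24 (edgeR adjusted p = 0.0407). The most abundant members per length were Ropn1l (6.39 CPM per kb in naturals), Odf2 (5.30) and Ift172 (3.33), with log2 fold changes of -0.14, -0.42 and -0.43 and edgeR adjusted p = 0.798, 0.467 and 0.209. Odf2 was at 25.8, 10.3, 8.65, 16.2 and 43.8 CPM in naturals, so its level too was highest in the 3 libraries with spermatid transcripts. Without natural 5 the log2 fold change was 0.02 for Odf2 and 0.05 for Ropn1l. Ift140 was at 7.62 to 12.6 CPM in naturals and 0 to 10.02 CPM in IVF (-0.51, SE 0.27, edgeR adjusted p = 0.162).

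In female livers 12 members were tested, of which 2 rose beside 25.4% of all genes and 2 fell beside 23.6%. DESeq2 called 3 as lower and 2 as higher. Totals ran from 3947645 to 34149676 counts in naturals and from 13815244 to 90441392 in IVF. Ift172 was at 10.97, 10.4, 7.91, 8.04 and 12.8 CPM in naturals and at 11.6 to 18.4 CPM in IVF with a median of 17.6 (log2 fold change 0.72, SE 0.17, edgeR adjusted p = 0.00271). Ift140, a subunit of the complex that works in return transport, was at 4.52 to 7.40 CPM against 6.39 to 12.0, median 10.1 CPM (0.74, SE 0.21, edgeR adjusted p = 0.00963). Gas8 was at 12.2, 4.34, 9.60, 10.7 and 8.27 CPM against 3.24 to 5.20, median 4.40 CPM (-1.05, SE 0.25, edgeR adjusted p = 0.00222), with natural 2 inside the IVF range. Ropn1l, a fibrous sheath protein, was at 7.62, 4.18, 6.78, 7.89 and 4.36 CPM against 1.59 to 4.44, median 2.71 CPM (-1.05, SE 0.29, edgeR adjusted p = 0.00734). Odf2 was at 15.5 ± 6.64 and 11.2 ± 1.88 CPM (SD, n = 5 and 6; -0.45, SE 0.24, edgeR adjusted p = 0.133) and Dnaic1, a dynein intermediate chain, at 1.39 to 15.2 against 1.35 to 5.58 CPM (-1.35, SE 0.53, edgeR adjusted p = 0.0502), neither passing. Dnaic1 passed as lower without natural 5 (edgeR adjusted p = 0.00592), without IVF 2 (edgeR adjusted p = 0.0244) and with a length trend removed (edgeR adjusted p = 0.0482), and Odf2 without natural 4 (edgeR adjusted p = 0.0210). Removing each library's trend with GC content, fitted with the members left out, ended the calls of Ift140 and Ift172 and added Rfx2. The fold changes of the other genes in this table followed GC content with rho = 0.721, and 6 hepatocyte markers summed to 158160 to 242752 CPM in naturals and 104365 to 124439 in IVF; their part was not tested.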

How the data were processed

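RNA libraries were made with a stranded mRNA kit from a cross section of testis and from ovary and liver. The authors deposited whole-number counts per gene, one table per experiment; per the submitters' processing notes the tools were Trimmomatic 0.32, STAR 2.3.0e, featureCounts 1.5.0 and DESeq2, with build mm10. The strand setting of the counting is not given in the sources used here. Several members, Hydin and Dnah6 among them, overlap another gene's exon, so their counts may be shared. These overlaps lie on the opposite strand, except that of Fsip1, which lies on its own. Among counts of 1 to 20, 60.0% to 94.3% were even in the 72 libraries, as when both mates of a pair are counted.

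Each table was fitted on its own with edgeR 4.0.16 in R 4.3.3 (TMM, filterByExpr by group, robust quasi-likelihood test, 2-sided, IVF against naturals), with Benjamini-Hochberg adjustment over all genes tested and calls at an adjusted p under 0.05. CPM used TMM library sizes. Transcript length and GC content came from the longest GENCODE M21 transcript (coding where there was one), for 27393 symbols matched by name and 36 by synonym. Length slopes were compared by exact permutation over libraries (scipy 1.17.1, Python 3.11.15). Precision was limited by totals of 543745 to 90441392 counts per library, and 3 counts were taken as the floor for a gene counted at 0. The scripts were tested on simulated data. The members, the other lists and the tests were chosen with earlier results of these data known. Values are given for the 4 genes that prompted the list, Foxj1 and Rfx2, the members of smallest p or highest level in each experiment, and the other pathway genes that passed; others are given by count and range. Alternatives were DESeq2 1.42.0, its size factors in edgeR, no filter or at least 10 counts in every library, a 1.5-fold limit, a replicate block, removal of a length or GC trend, and leaving out each library. Summing the near-identical libraries, and leaving out the 2 shallow male livers, were added after seeing the data.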

Additional observations from a re-analysis of the deposited data

Results flagged for a closer look

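Single libraries far from the rest of their group were found in 14 of 130 groups of 4 to 10 values checked, where chance gives about 1 in 20. Many of these groups share the same libraries and are not independent, so no excess over chance is read from the count. At E18.5, IVF 2 was high in Foxj1 at 4.17 CPM. At 12 weeks natural 3 was high in Dnah7b at 154 CPM, and at 39 weeks IVF 4 was high in Fsip2 at 911 CPM. In F2 testes, natural 3 was low in Dync2h1 at 179 CPM and in Foxj1 at 158 CPM, and IVF 7 was high in Hydin at 372 CPM and in Tekt3 at 239 CPM. The natural 2 ovary was high in Foxj1 at 124 CPM, Rfx2 at 13.0 CPM, Dnah10 at 30.5 CPM and Dnah1 at 32.1 CPM, beside its oviduct transcripts. The IVF 3 male liver, with 543745 counts, was low in Ift88 and in Ift140, both at 0 CPM. The IVF 1 female liver was low in Ift172 at 11.6 CPM.

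The length slope, IVF minus naturals, was 0.0624 at E18.5 and -0.0577 at 12 weeks, with every IVF library above every natural at the first age and below at the second. The difference between the ages was not tested.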

How the results depend on the processing

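Counts of members called moved as follows. At E18.5 the count of 0 became 1 with DESeq2, and 0 to 1 with 1 library left out. At 12 weeks the count of 11 became 1 with a 1.5-fold limit, 6 with the replicate block and 1 with the length trend removed, and ran from 7 to 12 with 1 library left out (7 without natural 3, natural 4 or IVF 4). At 39 weeks it stayed at 0 throughout. In F2 testes the count of 1 became 0 with a 1.5-fold limit and 2 with DESeq2, and ran from 1 to 2 (2 without IVF 7). In male livers the count of 1 became 2 with DESeq2's size factors, 3 without a filter and 0 with the GC trend removed, and ran from 0 to 2, and a minimum of 10 counts in every library left no member. In female livers the 4 calls ran from 4 to 6 and in ovaries the 0 calls stayed at 0 with 1 library left out. The length slope difference kept its sign at E18.5, from 0.0472 to 0.0785 with 1 library left out. At 39 weeks it became 0.01005 over genes of at least 10 CPM and 0.00812 over transcripts from 1 kb, and ran from -0.0478 to 0.0483. In F2 it became -0.00908 and -0.00337 under the same settings and ran from -0.00650 to 0.00652. Some log2 fold changes crossed zero. With the replicate block they were Hydin -0.0165, Foxj1 0.0856 and Gas8 0.0181 at E18.5, Rfx2 -0.00372 in F2 testes and Foxj1 0.31 in ovaries. With the length trend removed they were Hydin -0.19 at E18.5 and Rfx2 0.0203 at 12 weeks, with the GC trend removed Foxj1 0.0750 at E18.5, Fsip2 -0.27 at 39 weeks and Ropn1l 0.40 in male livers, and with DESeq2's size factors Rfx2 0.000875 at 12 weeks. With 1 library left out, E18.5 values ran from -0.0314 to 0.30 for Hydin, -0.43 to 0.18 for Foxj1, -0.0892 to 0.13 for Rfx2, -0.86 to 0.39 for Fsip1 and -0.17 to 0.00164 for Gas8. At 12 weeks they ran from -0.0926 to 0.0664 for Foxj1 and -0.0315 to 0.0250 for Rfx2, and at 39 weeks from -0.34 to 0.50 for Fsip2, -0.45 to 0.13 for Dync2h1 and -0.45 to 0.0571 for Hydin. They ran from -0.00536 to 0.0625 for Rfx2 in F2 testes, from -3.75 to 1.81 for Foxj1 in ovaries, and in male livers from -0.36 to 0.0857 for Ropn1l and -0.63 to 0.0187 for Odf2. The causes were not tested. In no experiment did every same-numbered pair correlate above 0.1 (at 39 weeks the correlations were 0.177, -0.00711, -0.227 and 0.301), so the numbers were not taken as pairs. Replicate 4 at 39 weeks and replicate 5 in female livers (0.170) matched their own number best, the others did not. The block ended the call of Ift88 in male livers (0.97, edgeR adjusted p = 0.112) and brought Dnah8 there (-2.21, edgeR adjusted p = 0.0473) and Dnaic1 in female livers (-1.09, edgeR adjusted p = 0.0220) past the threshold. Summing or joining the near-identical libraries and leaving out the 2 shallow male livers, settings chosen after seeing the data, changed no call. Depth limited male livers, where IVF 3 held 543745 counts and 1 member was above 3 counts in every library, and E18.5, where naturals held at most 16 counts of Fsip2 each.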
